A study of Mus musculus with 2 samples.

Results

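Antisense noncoding genes are transcribed from the strand opposite a protein-coding gene, and 81 of them were expressed at a mean of 5 TPM or more in the hindbrain of mouse embryos at day 16.5 of development. TPM is a length-corrected relative abundance. Members carried the gene type antisense in GENCODE M21, were selected on that mean over the 2 libraries, and lay outside chromosomes X and Y. The imprinted genes Kcnq1ot1 and Airn were left out. The 81 genes came from 2015 antisense genes that met the other criteria, among 43346 Ensembl genes in all, and 471 of the 2015 were listed at 0 TPM in both libraries. Since TPM chose the members, their levels and all comparisons of those levels are descriptions, with no test.

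RNA longer than 200 bases was sequenced from B6NCrl mice of 1 group, healthy and untreated as far as the labels say, as 2 biological replicates. Each replicate was a pool of hindbrain, the part of the brain that forms medulla, pons and cerebellum, from male and female embryos, and replicate 2 held 37 embryos. The libraries held 42467811 and 42017008 expected counts. Of 12 hindbrain marker genes, 11 reached 1 TPM in both libraries, and their summed level was 229 TPM in each. None of the 10 forebrain or 8 skeletal muscle markers was listed at 0 in both libraries, and 1 and 4 of them reached 1 TPM in both. The summed forebrain markers stood at 28.3 TPM in replicate 1 and 6.41 in replicate 2, and the muscle markers at 351 and 16.3 TPM. No p appears, because permuting 2 libraries of 1 group cannot go below 0.5. Errors are the SD over n = 2.

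An antisense gene and its coding neighbour can share a promoter region and be transcribed away from each other, or they can run through each other and produce RNAs with complementary stretches. Some antisense RNAs act on the chromatin or the transcription of the gene beside them, some serve as hosts of small nucleolar RNAs, and for most no function is known. In the developing brain many lie beside genes of transcription factors. Positions below are on GRCm38.

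Windows around an annotated start are shown for 5 members, because the members' windows ranged widely in their content of CG dinucleotides. Each window holds 250 bases before and 50 after an annotated start, from RefSeq on GRCm38.p6, written 5′ to 3′ on the strand of the antisense gene, with every CG dinucleotide in capitals. The first 4 are the highest-expressed members whose RefSeq start lay within 100 bases of a GENCODE start and whose window held no UTR. The starts shown for these 4 lie inside the gene, downstream of its outermost 5′ end, and that of 9530082P21Rik lies furthest in. They need not be the starts whose distances to coding genes are given below. C130021I20Rik was added, after its values were seen, for its place beside the transcription factor gene Lmx1b. The windows are chr11:3648765-3649064 on the minus strand for Tug1, chr6:86527151-86527450 on the plus strand for 1600020E01Rik, chr12:3235541-3235840 on the plus strand for Rab10os, chr17:23748986-23749285 on the plus strand for 9530082P21Rik and chr2:33640943-33641242 on the plus strand for C130021I20Rik.
Tug1: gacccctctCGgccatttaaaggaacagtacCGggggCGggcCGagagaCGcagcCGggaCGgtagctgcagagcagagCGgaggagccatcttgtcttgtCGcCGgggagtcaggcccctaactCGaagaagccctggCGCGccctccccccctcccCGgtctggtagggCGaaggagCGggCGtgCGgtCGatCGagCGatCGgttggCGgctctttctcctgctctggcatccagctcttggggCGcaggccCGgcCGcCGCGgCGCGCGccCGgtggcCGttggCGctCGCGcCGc
1600020E01Rik: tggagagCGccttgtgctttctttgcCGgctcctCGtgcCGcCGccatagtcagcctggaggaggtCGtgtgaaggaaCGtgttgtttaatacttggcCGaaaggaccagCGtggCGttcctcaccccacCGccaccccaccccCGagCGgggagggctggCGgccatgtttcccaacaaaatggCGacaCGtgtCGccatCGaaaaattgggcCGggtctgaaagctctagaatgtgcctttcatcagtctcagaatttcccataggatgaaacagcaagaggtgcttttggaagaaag
Rab10os: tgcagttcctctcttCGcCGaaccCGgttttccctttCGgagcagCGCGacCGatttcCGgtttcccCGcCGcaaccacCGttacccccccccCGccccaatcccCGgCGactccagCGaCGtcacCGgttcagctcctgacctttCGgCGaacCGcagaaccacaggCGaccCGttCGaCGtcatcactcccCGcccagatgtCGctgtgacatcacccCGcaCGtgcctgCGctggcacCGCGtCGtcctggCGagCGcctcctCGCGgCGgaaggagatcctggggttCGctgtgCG
9530082P21Rik: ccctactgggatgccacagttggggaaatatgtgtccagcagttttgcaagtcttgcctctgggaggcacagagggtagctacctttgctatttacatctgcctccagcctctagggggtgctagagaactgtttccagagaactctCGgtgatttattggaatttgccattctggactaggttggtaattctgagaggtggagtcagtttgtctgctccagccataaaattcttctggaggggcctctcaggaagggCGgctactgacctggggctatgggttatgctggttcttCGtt
C130021I20Rik: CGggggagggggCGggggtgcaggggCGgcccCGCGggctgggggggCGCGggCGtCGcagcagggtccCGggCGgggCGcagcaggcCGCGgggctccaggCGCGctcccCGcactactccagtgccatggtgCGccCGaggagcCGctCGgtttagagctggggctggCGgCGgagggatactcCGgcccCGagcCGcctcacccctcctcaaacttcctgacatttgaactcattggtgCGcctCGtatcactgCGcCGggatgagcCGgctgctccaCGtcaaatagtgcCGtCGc
Tug1 had 37 CG dinucleotides in its 300 bases, a number that 5.58% of all 32851 RefSeq promoters reached. Rab10os had 39, reached by 4.45% of promoters, and C130021I20Rik had 34, reached by 7.73%. The window of 1600020E01Rik held 19, at the members' median, and that of 9530082P21Rik held 3, a number that 76.7% of all promoters reached. CG-rich starts are typical of broadly used promoters in mammals.

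Of the 81 members, 39 matched a RefSeq promoter by symbol and 31 of these had a start within 100 bases of a GENCODE start, which could be an internal one. The median of those 31 was 19 CG dinucleotides per 300 bases, against 7 over all RefSeq promoters, and 27 of the 31 lay at or above that overall median. They ranged from 3 to 39. The letters TATAAA, searched on either strand, were found in 2 of the 31 windows and in 13.6% of all promoters. The set of all promoters was not limited to expressed or antisense genes, so nothing about the members is read from these contrasts.

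Most members stood near the minimum. In the 5 to 10 TPM range lay 47, from 10 to 20 TPM 16, from 20 to 50 TPM 14, and at 50 TPM or more 4. The median was 9.18 TPM and the range 5.04 to 129 TPM. The members summed to 1291 TPM in replicate 1 and 1308 TPM in replicate 2, of which Tug1 alone gave 11.4% and 8.51%. The median of each member's smaller expected count was 209, and 60 members had at least 100 counts in both libraries. Reaching 5 TPM in both libraries were 75 of the 81.

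**Figure D1:**
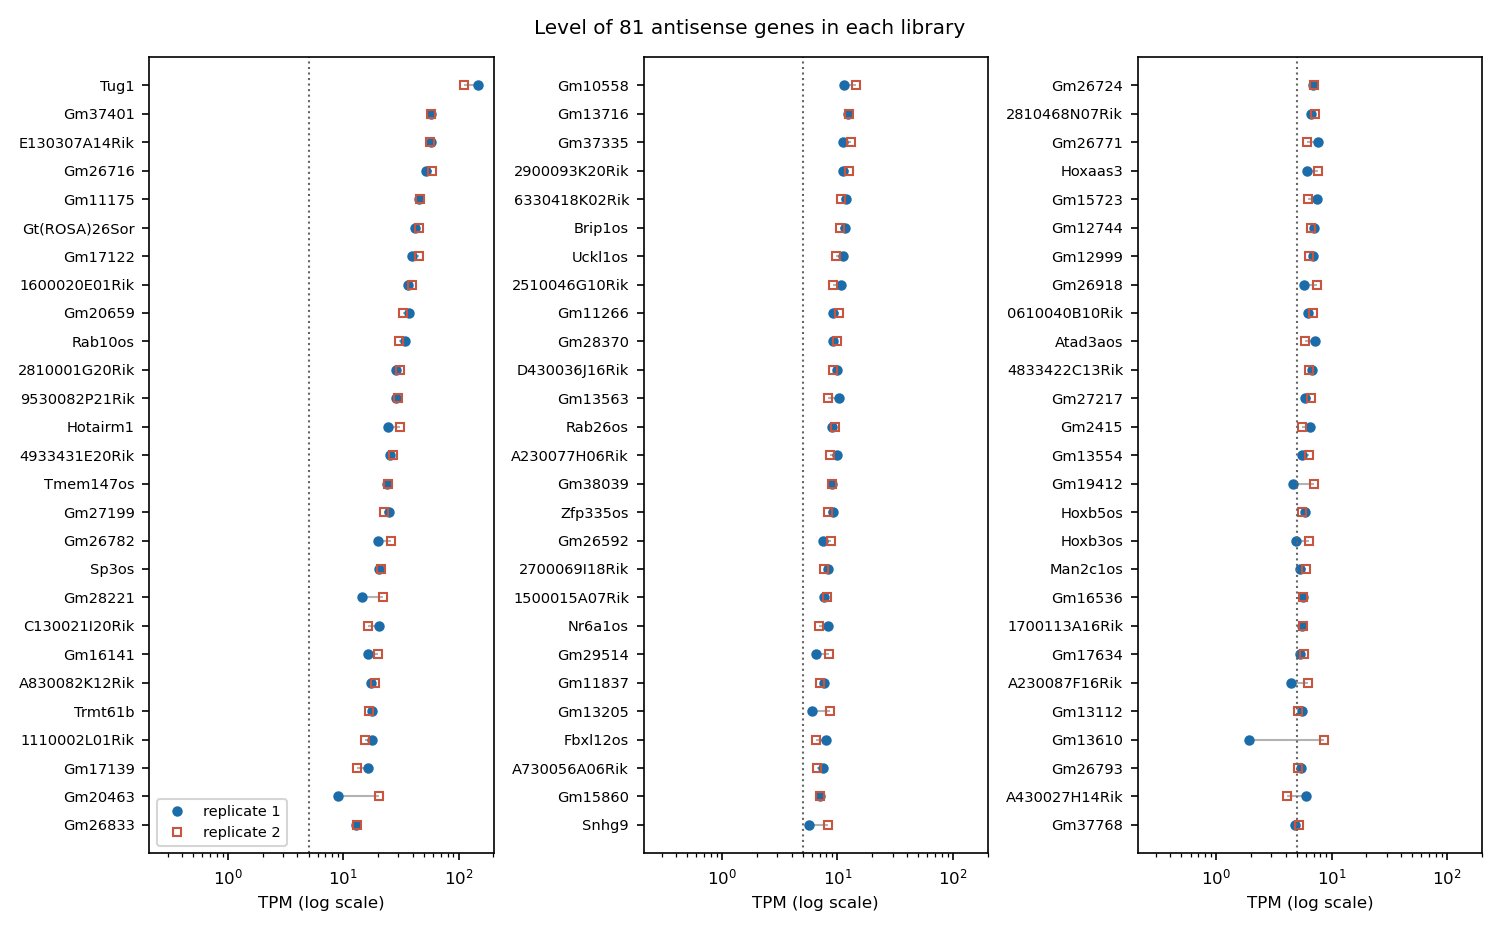
TPM of each of the 81 antisense genes (log scale) in replicate 1 (filled circles) and replicate 2 (open squares), ordered by mean, with the minimum of 5 TPM dotted. Tug1 stands apart at 146.81 and 111.28 TPM, and Gm13610 has the widest gap, at 1.93 and 8.62 TPM.

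Just inside the minimum were Gm26793 at 5.41 TPM in replicate 1 and 5.11 in replicate 2, A430027H14Rik at 6.05 and 4.09, and Gm37768 at 4.85 and 5.23. Just outside were Gm38250 at a mean of 4.945 TPM, Gm13008 at 4.96 and 4.53 TPM, and Gm15351 at 6.31 and 3.16. The values of these 6 genes in the single pools overlapped. A lower minimum of 1 TPM would have taken in 388 genes and a higher one of 10 TPM 34.

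The RNA models were short and simply built. In 72 members the most abundant transcript had several exons, in 45 exactly 2, and in 9 a single exon. The most exons in such a transcript was 6. The most abundant transcript had a median length of 882 bases, from 183 bases in Snhg9 to 5407 in 4933431E20Rik, and 36 members were quantified with 1 transcript. Tug1 was quantified with 5 transcripts, of which the most abundant, 5112 bases long, held 54.8% of the gene's TPM in replicate 1 and 59.9% in replicate 2.

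Of the 81 members, 76 overlapped at least 1 protein-coding gene on the opposite strand, and 14 overlapped several. The coding gene with the longest overlap is called the partner. Judged by mean TPM, 26 of the 76 members stood above their partner and 50 below. In 17 of the 76 pairs the partner was below 5 TPM, so the minimum alone placed the member above. By the deposited interval of each library, whose level is not stated, 23 members lay above the partner in both libraries, 47 lay below in both, and 6 were not called. Among all 1417 antisense genes above 0 TPM that have a partner, the shares were 2.89% above and 86.2% below by intervals, and 7.34% were above by mean TPM. Members were taken for their own TPM, so nothing is read from that contrast. The median partner had 20.2 TPM and the median member with a partner 9.06 TPM. The median log2 ratio of member over partner, with 0.1 TPM added to each, was -1.22, with -1.45 in replicate 1 and -1.03 in replicate 2, and single pairs ran from -7.27 to 7.90. Among the 34 members at 10 TPM or more, 31 of which had a partner, the median ratio was 0.11, so its sign depended on the minimum.

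**Figure D2:**
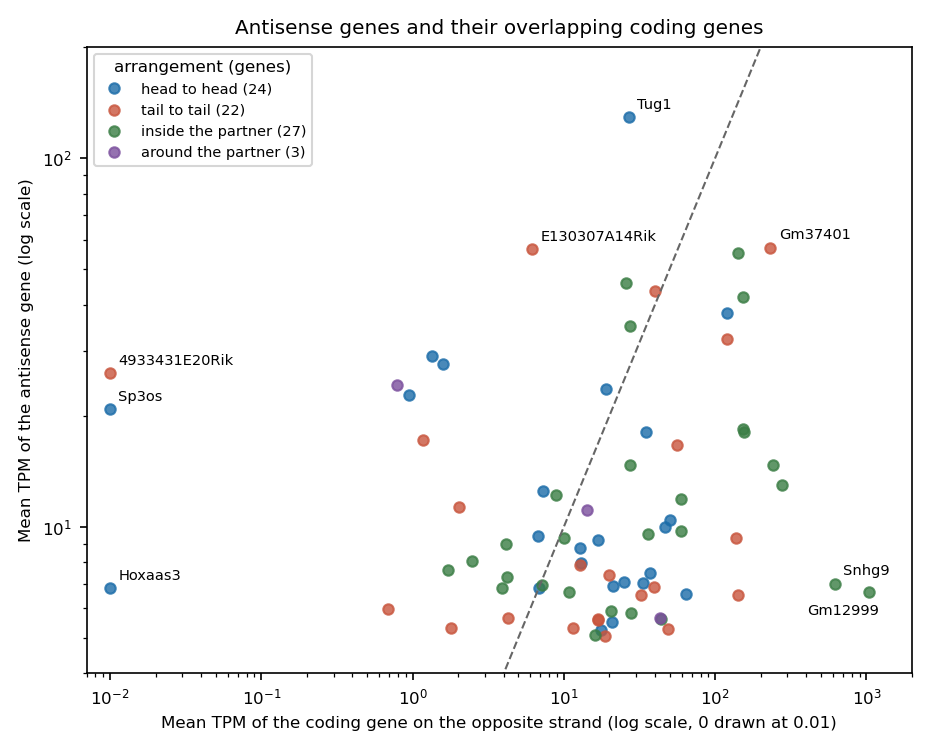
Mean TPM over 2 replicates of each of 76 antisense genes against that of the coding gene it overlaps most (both axes log scale, coloured by arrangement), with equal levels dashed. Above the line lie 26 genes, including Tug1 and the 17 whose partner is below 5 TPM. The lowest ratio is that of Gm12999, all of whose exon bases lie opposite coding exons, and whose partner Atpif1 has 1042 TPM.

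Tug1 (ENSMUSG00000056579.18, chr11:3639785-3649673, minus strand), a long noncoding RNA first described in retinal development, was the highest member. It stood at 146.81 TPM in replicate 1 and 111.28 in replicate 2, a mean of 129 ± 25.1, from 18826 and 14833 expected counts. Its partner Morc2a, a chromatin-silencing ATPase gene whose start lies 86 bases away, stood at 29.37 and 24.66 TPM. Tug1 was therefore 4.78-fold above Morc2a (log2 ratio 2.25 ± 0.10), with non-overlapping intervals in both libraries. Scaled to the bulk of genes, the log2 ratio of replicate 2 over replicate 1 was -0.33 for Tug1 and -0.30 for Morc2a, while scaling to spike-in totals gave 0.12 for Tug1. Within the exons of Tug1 and on its strand lie small annotated RNA fragments, of which Gm27640 was listed at 71.11 and 63.68 TPM from 85.7 and 78.6 counts, so reads were divided between these models.

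Other abundant members with a partner lay above, near or below it. E130307A14Rik (chr10:39621412-39732007, minus strand) had 57.50 and 55.93 TPM, 9.17-fold above Traf3ip2, an adaptor gene of interleukin-17 signalling at 6.72 and 5.65 TPM. The log2 ratio, 3.18, was 6.11 when only coding transcripts of Traf3ip2 were counted. The nearest coding start, 111 bases away, was that of the DNA polymerase gene Rev3l, at 27.52 and 26.94 TPM. In both libraries E130307A14Rik lay above both coding genes. Gt(ROSA)26Sor (chr6:113067428-113077333, minus strand), the locus into which many mouse transgenes are inserted, had 42.12 and 45.00 TPM. Its partner Thumpd3 had 38.33 and 42.24 TPM, a difference that was not called, and Setd5, a chromatin regulator gene that starts 32 bases away, had 36.41 and 33.08 TPM. The 3 genes of this locus thus lay within a narrow range of each other.

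1600020E01Rik (chr6:86526247-86582466, plus strand) had 36.51 and 39.52 TPM. Its partner Pcbp1, a poly(C)-binding protein gene starting 50 bases away, had 136.43 and 102.85 TPM and was 3.15-fold higher. Rab10os (chr12:3235504-3250377, plus strand), at 33.94 and 30.53 TPM, lay 3.70-fold below Rab10, a small GTPase gene of membrane traffic, at 121.77 and 116.52 TPM. The Rab10os start is 73358 bases from the Rab10 start, since these genes meet at their 3′ ends. 2810001G20Rik (chr11:64079484-64083259, plus strand) overlapped no coding gene and stood at 28.54 and 30.77 TPM. Its start lies 18 bases from that of Cox10, a gene of heme A synthesis, which had 25.89 and 23.60 TPM.

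At 5 of the 12 highest members nearly all exon bases lay inside exons of the partner. Gm37401 (chr9:108337089-108338273, minus strand), with 93.4% of its exon bases opposite coding exons, had 57.22 and 57.07 TPM against 232.31 and 232.22 for Rhoa, a small GTPase gene of the actin cytoskeleton. Gm26716 (chr4:130824394-130826313, minus strand), with 100%, had 52.34 and 58.25 TPM against 156.88 and 126.12 for the proteoglycan gene Sdc3. Gm17122 (chr5:113842601-113843116, plus strand), also 100%, had 39.33 and 44.90 TPM against 159.67 and 147.03 for the actin-binding gene Coro1c. These lay 4.06-, 2.56- and 3.64-fold below their partners. The other two lay above theirs. Gm11175 (chr8:70699162-70700080, minus strand), a single-exon gene opposite the transcription factor gene Jund, had 45.35 and 45.97 TPM against 27.73 and 24.12. Gm20659 (chr11:101971143-101971859, plus strand) had 37.29 and 32.71 TPM against 28.02 and 26.84 for the phosphatase gene Dusp3.

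Each of these 5 genes had expected counts that were not whole numbers, which means that the authors' model divided reads among features. The use of strand in counting is not stated in these sources, and the notes deposited with the data list signal tracks with no strand named. Reads from a member and from the opposite coding exon therefore cannot be told apart with certainty. Counts that were whole in both libraries, within 0.005, were seen in 13 of 14 members with no exon base opposite a coding exon (92.9%). The number was 8 of 21 members with up to 10% (38.1%), 3 of 33 with 10% to 90% (9.09%) and 0 of 13 with 90% or more. All antisense genes that had 10 counts or more in each library, the members included, showed the same order, with 148 of 159 (93.1%), 50 of 115 (43.5%), 20 of 297 (6.73%) and 0 of 18.

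**Figure D3:**
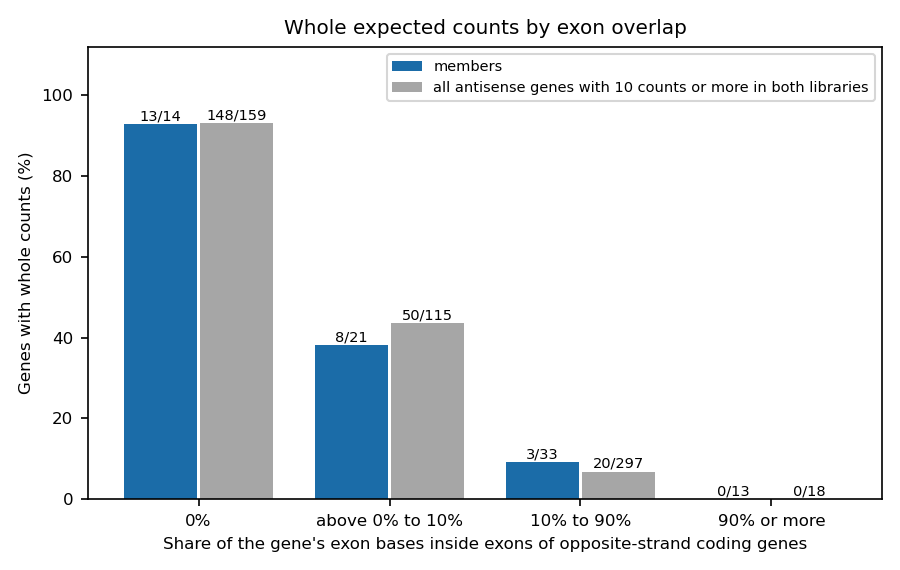
Percent of genes with whole expected counts in both libraries, by the share of the gene's exon bases inside exons of opposite-strand coding genes, for the 81 members (blue) and all antisense genes that had 10 counts or more in each library (grey). The share falls from 92.9% of members with no such bases to 0 of 13 members with 90% or more.

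The annotated introns of these members have the ends usual for their own strand. In 16 members, 1 intron lay whole inside a single exon of an opposite coding gene, with a median length of 325.5 bases and a range of 60 to 2894. On the member's strand 15 of these introns had GT-AG ends, the usual intron ends, and that of Gm12744 had GC-AG ends. None read as CT-AC, which is the same pair of ends seen from the coding strand. Among other antisense genes above 0 TPM, 71 of 79 such introns (89.9%) had GT-AG ends, against 93.8% in members. A stretch of 4 bases or more was repeated at both ends of the intron in 4 of the 16 and in 10 of the 79. The longest repeat was 8 bases in both sets. These are properties of the annotation and were not measured in reads.

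The members with the highest ratio over their partner mostly paired with coding genes that were nearly silent. 4933431E20Rik (chr3:107888850-107896213, minus strand) had 25.32 and 26.91 TPM against 0.02 and 0.00 for Eps8l3, and a start 9 bases from that of the glutathione transferase gene Gstm5, at 227.58 and 244.94 TPM. Sp3os (chr2:72979424-72988677, plus strand) had 20.27 and 21.33 TPM. Its partner Gm11084 was listed at 0 in both libraries, and Sp3, a transcription factor gene that it also overlaps, had 26.26 and 25.18 TPM. Set against the highest-expressed coding gene they overlap, 4933431E20Rik (log2 ratio -3.17) and Sp3os (-0.30) lay below it.

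Tmem147os (chr7:30729579-30745929, plus strand) had 24.07 and 24.37 TPM, 30.7-fold above Gapdhs, the glyceraldehyde phosphate dehydrogenase gene of sperm, at 0.69 and 0.89 TPM. The log2 ratio, 4.77, was 6.29 over coding transcripts of Gapdhs alone and 3.82 with 1 TPM added to each gene. Its start is 39 bases from that of Tmem147, at 200.70 and 217.04 TPM. Gm26782 (chr14:50870324-50880603, plus strand) had 19.80 and 25.66 TPM, 23.9-fold above the telomerase-associated gene Tep1 at 0.97 and 0.93 TPM, whose start is 184 bases away (log2 ratio 4.44, or 3.61 with 1 TPM added). 9530082P21Rik (chr17:23743234-23754065, plus strand) had 28.57 and 29.57 TPM, 21.5-fold above Kremen2, a gene of Wnt inhibition, at 1.18 and 1.52 TPM. It also overlaps Flywch1, which had 104.04 and 99.87 TPM, and against that gene its log2 ratio was -1.81, where Kremen2 gave 4.33, or 3.68 with 1 TPM added.

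At the other end stood members opposite very abundant messages. Gm12999 (chr4:132532687-132533601, plus strand) had 6.93 and 6.37 TPM. Its partner Atpif1, the inhibitor of the mitochondrial ATP synthase, had 971.72 and 1113.28 TPM and was 157-fold higher. Of the exon bases of Gm12999, 100% lay opposite coding exons, and its counts were not whole. Its reads therefore cannot be told apart from those of Atpif1 with certainty. Snhg9 (chr17:24719531-24719965, minus strand), the host of the small nucleolar RNA Snora78, had 5.69 and 8.33 TPM from 12 and 18 counts, the fewest of any member. Rps2, a ribosomal protein gene with a start 98 bases away, had 620.83 and 613.88 TPM and was 88.1-fold higher. The quantified Snhg9 transcript, 183 bases long, is shorter than the 200 bases above which RNA was sequenced. The part of this in its level was not tested.

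4833422C13Rik (chr13:91701665-91741872, minus strand) had 6.72 and 6.34 TPM against 145.52 and 137.78 for Ssbp2, a DNA-binding protein gene. It also overlaps Acot12, whose start lies 264 bases away and which was lower than it, at 0.06 and 0.20 TPM. Of its exon bases 32.4% lay opposite coding exons. Gm10558 (chr1:66322276-66328796, minus strand) had 11.43 and 14.49 TPM against 296.12 and 256.50 for Map2, the microtubule-associated protein gene of dendrites, which was 21.3-fold higher. Gm20463 (chr17:34601151-34601576, plus strand) had 8.95 and 20.54 TPM against 234.71 and 246.41 for the ubiquitin ligase gene Rnf5, a log2 ratio of -4.02, or -4.70 without replicate 2. All exon bases of Gm20463 lay opposite coding exons, and its counts were not whole, so the same limit holds for it. In all 5 of these pairs of member and partner the partner lay above in both libraries.

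The members were arranged with their partners in 4 ways. In 24 pairs the genes overlapped at their 5′ ends (head to head), in 22 at their 3′ ends (tail to tail), in 27 the member lay inside the partner and in 3 around it. The median log2 ratio of member over partner was -0.78 head to head, -1.48 tail to tail and -1.64 inside the partner. Head to head 9 members lay above by intervals, 14 below and 1 was not called. Tail to tail the counts were 6, 14 and 2, and inside the partner 7, 17 and 3. The ranges overlapped, from -3.27 to 7.71 head to head, -4.42 to 7.90 tail to tail and -7.27 to 2.08 inside. These classes differ in their exon overlap too, with a median of 10.2% of exon bases opposite coding exons head to head, 31.5% tail to tail and 58.9% inside.

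Starts close to a coding start were common. In 47 members (58.0%) a start lay within 1000 bases of that of an opposite-strand coding gene, and in 36 within 300 bases. Of all 2015 antisense genes 653 (32.4%) had such a start. The median distance from start to start was 664 bases in members and 6831 bases in all antisense genes. In 27 of the 47 the coding gene at that start was also the partner. Over the 47, the median log2 ratio of the member over the gene at the nearby start was -1.55, the median level of those genes was 25 TPM, and 17 members lay above. The 5 members without an overlapping coding gene were 2810001G20Rik, C130021I20Rik, Gm26833, Fbxl12os and Gm27217, and 3 of them had such a start.

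Antisense genes beside developmental regulators formed a list of 33 names, of which 14 were of antisense type and in the files. Among these 14, 4 were members, all of them in the Hox clusters, whose transcription factors set position along the body axis. In all, 6 reached 1 TPM in both libraries and 1, Wt1os, was listed at 0. Below the minimum but above 1 TPM were Evx1os at 2.94 and 2.99 TPM and Zfhx2os at 4.58 and 3.31.

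Hotairm1 (chr6:52156902-52162119, plus strand), a noncoding RNA of the Hoxa cluster, was the highest of the 4 Hox members at 24.16 and 30.98 TPM. Hoxa2, a neighbour of it, had 17.43 and 19.59 TPM. Hotairm1 was thus above Hoxa2 in both libraries. On its strand and within its exons lies Gm27868, a model of 102 bases listed at 48.76 and 6.39 TPM from only 3.67 and 0.49 counts.

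Hoxaas3 (chr6:52175217-52215076, plus strand) runs opposite several Hoxa genes and had 6.10 and 7.55 TPM. Its partner by length of overlap, the gene model Gm28308, was listed at 0. Hoxa5 had 72.11 and 88.82 TPM, Hoxa3 11.61 and 10.75, Hoxa6 8.28 and 7.88, and Hoxa4 4.67 and 7.33, while Hoxa7 had 20.52 in replicate 1 and 9.84 in replicate 2. Set against Hoxa5, Hoxaas3 had a log2 ratio of -3.54, in place of 6.11 against Gm28308. Its position relative to its coding neighbours therefore depended on which was chosen.

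In the Hoxb cluster, Hoxb3os (chr11:96343072-96354691, minus strand) had 4.92 and 6.37 TPM against 4.62 and 3.95 for Hoxb3, a difference that was not called, with 76.2% of its exon bases opposite coding exons. Hoxb2, which it also overlaps, had 17.49 and 16.75 TPM, and the log2 ratio, 0.39 over Hoxb3, was -1.58 over Hoxb2. Hoxb5os (chr11:96291024-96306910, minus strand) had 5.85 and 5.48 TPM, 7.65-fold below its partner Hoxb6 at 41.92 and 44.71 TPM. Hoxb5, which it also overlaps, had 100.35 and 111.27 TPM, and the log2 ratio of Hoxb5os over it was -4.20, against -2.91 over Hoxb6. Both Hoxb members were close to the minimum in each library, beside coding genes that differed widely in level.

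**Figure D4:**
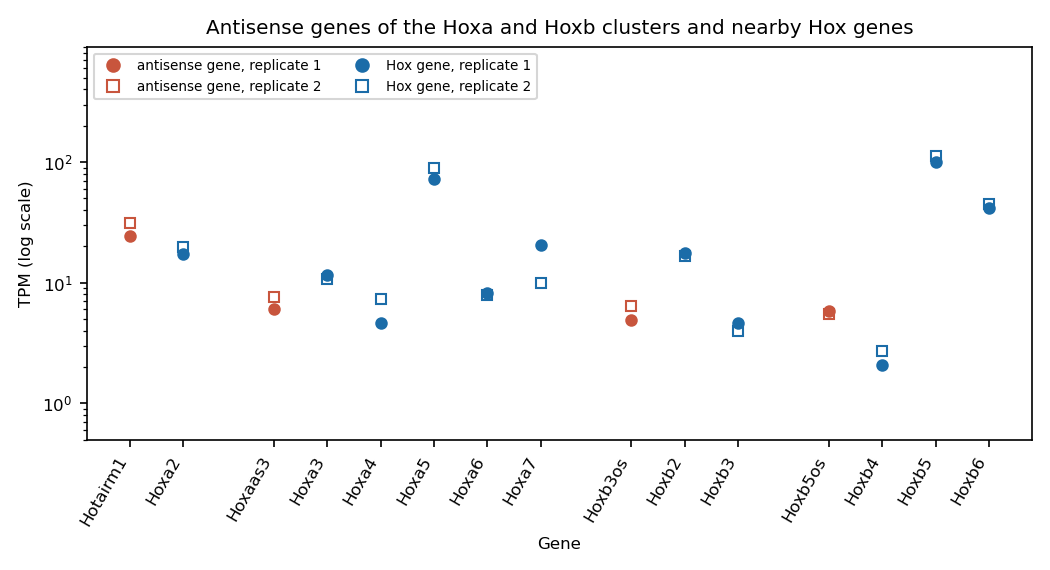
TPM (log scale) of the 4 antisense genes of the Hoxa and Hoxb clusters (red) and Hox genes they overlap or adjoin (blue), with replicate 1 as filled circles and replicate 2 as open squares. Hotairm1 lies above Hoxa2 in both replicates, and Hoxaas3, Hoxb3os and Hoxb5os lie between 4.92 and 7.55 TPM.

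The other 10 genes of antisense type on the list stayed below the minimum, and those of the forebrain genes Dlx1, Dlx6 and Emx2 were low. Dlx1as had 2.45 TPM in replicate 1 and 0.78 in replicate 2, Dlx6os1 1.36 and 0.00, and Emx2os 0.19 and 0.02. The summed forebrain markers had the same order between the pools, as given above, and their part in these values was not tested. Zeb2os had 0.99 and 0.11 TPM, Tbx3os1 0.74 and 0.62, Pax6os1 0.17 and 0.14, and Nkx2-2os 0.03 and 0.11.

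Further members lie at genes of transcription factors and signals, and are named here after their values were seen. Gm27199 had 24.88 and 22.41 TPM and starts 68 bases from Lhx5, a LIM homeobox gene at 20.92 and 17.32 TPM, which it overlaps head to head. C130021I20Rik had 20.44 and 16.33 TPM and starts 682 bases from Lmx1b, a LIM homeobox gene needed for serotonergic neurons, at 2.97 and 2.74 TPM. Both of these antisense genes lay above the homeobox gene beside them. A830082K12Rik, by contrast, had 17.46 and 18.67 TPM and starts 19 bases from Nr2f1, a nuclear receptor gene at 34.81 and 34.68 TPM.

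Gm16141 lies inside Meis1, a cofactor gene of Hox proteins, with no exon base opposite a coding exon, and had 16.26 and 19.97 TPM against 153.82 and 153.74. Gm11266, inside the glial and neuronal factor gene Nfib and likewise without opposite exon bases, had 9.08 and 10.38 TPM against 56.41 and 63.16. Both had whole counts in both libraries. Over coding transcripts of the partner alone, the log2 ratio of Gm16141 went from -3.08 to -1.80 and that of Gm11266 from -2.61 to -1.99. 2700069I18Rik had 8.30 and 7.64 TPM against 14.21 and 11.72 for the homeobox gene Zfhx4, and 2810468N07Rik 6.63 and 7.22 against 20.79 and 21.37 for Sox8. These 4 members lay below their partner in both libraries. D430036J16Rik had 9.81 and 9.08 TPM, above the serotonin receptor gene Htr1b at 6.79 and 6.72.

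The 2 pools gave similar levels for most members. With counts scaled by TMM, a method that centres on the bulk of genes, the median log2 ratio of replicate 2 over replicate 1 was 0.07 over members, 0.00 over all 11774 genes at 5 TPM or more and -0.01 over the 11112 coding genes among them. Within 1.5-fold between the pools were 77 members (95.1%), against 96.1% of all genes and 97.6% of coding genes. Higher in replicate 2 were 50 members (61.7%), against 49.0% of all genes. Under scaling to the spike-in totals, which shifted all genes by 0.45, the member median was 0.52 and 80 of the 81 (98.8%) were higher in replicate 2. The share of all genes under that scaling was not computed, so nothing about the members is read from the 98.8%. In bulk tissue, fewer cells of a type and less RNA per cell cannot be told apart.

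More than 2-fold higher in replicate 2 were 2 members, where 1.37% of all genes and 0.162% of coding genes at this level were. In the other direction the number was 0, where 0.612% of all genes and 0.594% of coding genes were. Gm13610 (chr2:32232782-32236382, minus strand) had 1.93 TPM from 41 counts in replicate 1 and 8.62 TPM from 189 counts in replicate 2, a 4.61-fold difference (log2 ratio 2.21), and its intervals of 0.42 to 3.8 and 6.06 to 10.7 did not overlap. Its partner Prrc2b had a log2 ratio of -0.31. Gm20463 had 60 and 141 counts, a 2.36-fold difference (log2 ratio 1.24), while Rnf5 had a log2 ratio of 0.12. Its intervals, 0.749 to 19.6 TPM and 9.09 to 31.3 TPM, overlapped. Of the exon bases of these 2 genes, 77.6% and 100% lay opposite coding exons. None of the 35 members with under 10% differed by over 2-fold. With only 2 members past 2-fold in all, the classes of exon overlap cannot be compared on this count.

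**Figure D5:**
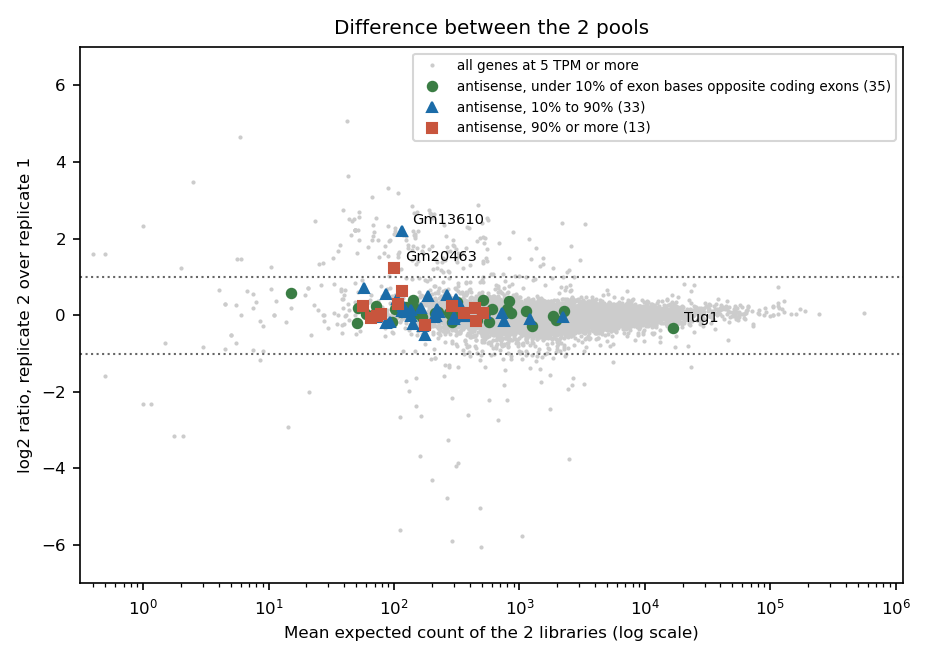
Log2 ratio of replicate 2 over replicate 1 (TMM-scaled) against the mean expected count (log scale) for all genes at 5 TPM or more (grey) and the 81 antisense genes, marked by the share of exon bases opposite coding exons. Only Gm13610 and Gm20463 lie past the dotted 2-fold lines among the antisense genes, and Tug1 has the most counts of them.

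The differences between the pools were also set side by side for members and partners. In 73 pairs the partner had at least 10 counts in either library. Over these pairs, the ratio of replicate 2 over replicate 1 of the member and that of the partner had a Pearson correlation of 0.04 and a Spearman correlation of 0.20. These are correlations across gene pairs within the same 2 libraries, which are not independent replicates.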

How the data were processed

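RNA-seq of 2 pools of 1 group was analysed from quantifications that the authors made per replicate on mm10 and GENCODE M4, as the notes deposited with them state. Tool, version and strand use are not stated in these sources. The authors deposited expected counts, which need not be whole, TPM, corrected for effective length, and FPKM, used in an alternative. The deposited interval bounds on TPM have no stated level and were treated as scores. They held the deposited TPM in 80 of the 81 members in each library. In replicate 1 the interval of Tug1, 141 to 146, lay below its 146.81 TPM. That of Itga9, the partner of Gm2415, was 0.861 to 1.78 in replicate 1 and lay above its 0.76 TPM. Isoforms were described by the deposited percent that each transcript takes of its gene.

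GENCODE M21 (GRCm38, the build of mm10) gave gene types and positions, joined on identifiers without version, with 42462 of 43346 matched. The partner is the opposite-strand coding gene with the largest gene-body overlap, 1 base or more. Exon overlap and introns use M21 models, and distances use all transcript starts. Ratios of member over partner used a pseudocount of 0.1 TPM. A pair was called when the intervals did not overlap in either library and had the same order in both.

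Expected counts were rounded, scaled in edgeR 4.0.16 by TMM under R 4.3.3 over Ensembl genes without spike-ins, and compared between pools with a prior count of 0.5. That step was tested on simulated data with known changes and a fixed spread between libraries, and the outcome is not reported here. Changes were placed only in genes with more counts than Snhg9, so the simulation does not cover that member. Size factors of DESeq2 1.42.0 were an alternative. Python 3.11.15 and pandas 2.3.3 joined the tables. Libraries held 42467811 and 42017008 expected counts, spike-ins included. The labels do not say that the pools shared no litter, so the SD measures the spread between these 2 samples.

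The members and lists were chosen with earlier results of these data known. Named are the 12 highest members, the 5 highest and 5 lowest over their partner, members over 2-fold apart between pools, the 3 genes either side of the minimum, and antisense genes of the list at developmental regulators. Named after their values were seen are the other members at regulators (Gm27199 to D430036J16Rik), the 5 without overlap, Gm12744 and those in the closing section. The comparison of 1 member with its partner enters the counts and is not reported here. Alternatives covered the minimum, the unit, the choice of partner, coding transcripts, pseudocount, scaling, prior count, each replicate left out and members with little exon overlap.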

Additional observations from a re-analysis of the deposited data

How the results depend on the processing

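The number of members, 81, became 388 at a minimum of 1 TPM, 34 at 10 TPM and 43 on FPKM. Either replicate alone also gave 81, of which 76 were members by replicate 1 and 80 by replicate 2. Members above their partner by mean TPM were 26, and 16 of 31 pairs at the 10 TPM minimum. In the 30 pairs of members with under 10% of exon bases opposite coding exons, an alternative chosen after seeing the data, 9 were above. By intervals above in both libraries, 23 became 15 and 8 under these 2 alternatives, and by intervals below, 47 became 15 and 19. With the highest-expressed overlapping gene as partner, members above by mean TPM were 20, intervals above 18 and intervals below 51. With the partner by exon overlap, in 67 pairs, they were 22, 19 and 40. Over coding transcripts of the partner, members above by mean TPM were 31. The median log2 ratio over the partner, -1.22, became -1.59 with the highest-expressed overlapping gene as partner and 0.11 at the 10 TPM minimum. With a replicate left out it ranged from -1.45 to -1.03, members above were 27 in either case, intervals above from 23 to 26 and below from 47 to 48. The median log2 ratio of replicate 2 over replicate 1, 0.07, was 0.06 with DESeq2 size factors, 0.52 with spike-in totals, 0.03 from deposited TPM, 0.05 at a minimum of 1 TPM and 0.08 under 10% exon overlap. Over 2-fold higher in replicate 2, 2 became 6 with spike-in totals, 1 at 10 TPM and 100 counts, 23 of 388 at 1 TPM and 0 under 10% exon overlap. Over 2-fold higher in replicate 1, 0 became 5 at 1 TPM. Shares of all genes past 2-fold were computed only with TMM at 5 TPM or more, so these changed counts have no share to be set against.

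Other partners, coding transcripts, FPKM and a pseudocount of 1 TPM changed the value of 222 single-member ratios over the partner. Of these 180 stayed within 1.5-fold with the same sign, 27 moved by more, 12 reversed in members called by intervals and 3 changed sign in members not called. With the highest-expressed overlapping gene as partner, the ratio reversed to -1.81 for 9530082P21Rik, -3.17 for 4933431E20Rik, -0.30 for Sp3os, -3.54 for Hoxaas3 and -0.27 for Gm2415. With the partner by exon overlap it reversed to -0.30 for Sp3os, 0.89 for Brip1os, -1.14 for Hoxaas3 and -0.27 for Gm2415. Counting coding transcripts of the partner alone, it reversed to 0.09 for Brip1os, 0.04 for 1500015A07Rik and 0.38 for Gm26918. Among members not called, coding transcripts took Rab26os from -0.11 to 1.33 and Gm15723 from 0.00 to 0.80, and the highest-expressed partner took Hoxb3os from 0.39 to -1.58. Without replicate 1, Gm26724 went from -0.04 to 0.36, and without replicate 2, Gm15723 became 0.14. Without replicate 1 the ratio of Gm13610 was -2.27, and without replicate 2 it was -4.79, in place of -3.19. The cause of these changes beyond the change of partner or minimum was not tested. No paired analysis was possible because there was 1 group. Intervals of coding-transcript sums were not run. Depth limits Snhg9 most, at 12 and 18 counts, and its transcript of 183 bases is also below the 200-base limit of the RNA sequenced.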
